A study of Danio rerio with 14 samples.

Results

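The peaks described here are the H3K27ac peaks that lie within 2 Mb of a chromosome end in zebrafish T-cell tumors and normal thymus. On chromosomes 1 to 25 of the GRCz11 assembly, the largest peak end over the 7 lists was taken as the length of a chromosome. A peak was a member when it started before base 2000000 or ended within 2000000 bases of that length. The right end of chromosome 4 was left out. This leaves 49 ends that span 98 Mb, or 7.30% of the length of the 25 chromosomes without that right end. The rule uses position alone, and it took 19822 of the 183982 peaks on these chromosomes (220034 peaks with all other sequences included).

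The tumor cells came from fish that carry the human IRF4 gene, a transcription factor of lymphocytes, together with mCherry, a red fluorescent marker, both driven by the zebrafish lck promoter. The thymus cells came from fish that carry mCherry alone behind the same promoter, and were harvested at an age of 3 months. According to the methods, cells of both kinds were sorted for mCherry, so each library holds the cells in which lck is active, a promoter used by T cells of several stages and, per the study, by some B cells. All samples were crosslinked with formaldehyde for 10 min before chromatin was precipitated with an antibody against H3K27ac, and broad peaks were called in each library against whole cell lysate. Lists of 4 tumors (tumors 1, 2, 3 and 4) and 3 thymus samples (thymus 2, 3 and 5) were compared. The labels give no age and no p53 genotype for the tumor fish, and the number of fish behind a thymus library is not settled by them. A figure legend of the study calls the thymus samples pooled, while its reporting summary lists 4 tumor fish and 3 thymus from normal fish. If the thymus alone was pooled, its smaller spread cannot be told apart from a trait of the tissue. The p-values thus measure only the spread between these samples.

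H3K27ac is the acetylated form of lysine 27 of histone H3, a mark placed on nucleosomes beside active promoters and enhancers. A chromosome ends in telomeric repeats capped by protein, and the adjoining subtelomeric DNA is known in yeast for a silenced state that spreads inwards. Many vertebrate chromosomes instead carry dense genes not far from the end, and the long arm of zebrafish chromosome 4 is known for its repeats and its silent, late-replicating chromatin. A peak list shows where the mark was found above background, not how much of it was there.

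The lists were first looked at over T-cell genes, at positions given by the study. These positions come from region tables that the study drew up from these same samples, and markers without an entry drop out, so a peak there is nearly given and the check is weak. Of 15 T-cell markers 10 had a position, and 9 of these had a peak in all 7 samples, lck and gata3 among them. The exception was cd8a, the co-receptor of cytotoxic T cells, with a peak in the 3 thymus samples and in no tumor. Markers of B cells, granulocytes and macrophages had no position to check. The study states a single nominal depth for its libraries, and the lists hold no read totals, so the depth reached in each library is unknown. Total peak number was 19809 to 32781 in tumors and 31647 to 40335 in thymus. The narrowest peak measured 72 bp or more in each tumor list and 50 to 54 bp in the thymus lists, which thus reach down to smaller peaks. The list of tumor 2 stood apart, with 36 peaks wider than the widest peak of any other list (9026 bp), and 0 of them at a chromosome end.

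The chromosome ends carried more peaks per length than the interiors in every sample. Peak density at the ends was 23.6, 23.7, 28.5 and 18.7 peaks per Mb in tumors 1, 2, 3 and 4, and 34.0, 36.7 and 37.1 peaks per Mb in thymus 2, 3 and 5. In the interiors it was 15.8, 20.8, 17.6 and 12.0 peaks per Mb in the tumors, and 19.1, 23.8 and 22.5 peaks per Mb in the thymus samples. The end was thus denser than the interior by 1.49, 1.14, 1.62 and 1.56 times in the tumors and by 1.78, 1.54 and 1.65 times in the thymus samples. Over all samples the log2 ratio of end to interior density was 0.61 ± 0.20 (SD, n = 7), higher at the ends in 7 of 7 lists, with an exact two-sided sign-flip permutation p of 0.0156. This is the smallest p that sign flips of 7 samples allow. Adjusted by Benjamini-Hochberg over the 9 tests of ends against interiors and of tumors against thymus, the smallest value in this design was 0.0703, so that none of the 9 passes after adjustment and the p-values given below are unadjusted. The ends held 10.5, 8.20, 11.3 and 10.9% of the chr1 to chr25 peaks of the tumor lists and 12.3, 10.8 and 11.5% of those of the thymus lists, on 7.30% of the length. The peak totals here include the right end of chromosome 4, with 36 to 84 peaks per list, and the length does not.

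Tumor 2 had the smallest difference between ends and interiors. Without the 17 interior windows of 2 Mb that hold its wide peaks, its ratio was 1.14 as before. Set against the median interior window, its ends were denser by 1.28 times, and those of the other 6 samples by 1.58 to 1.94 times.

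**Figure D1:**
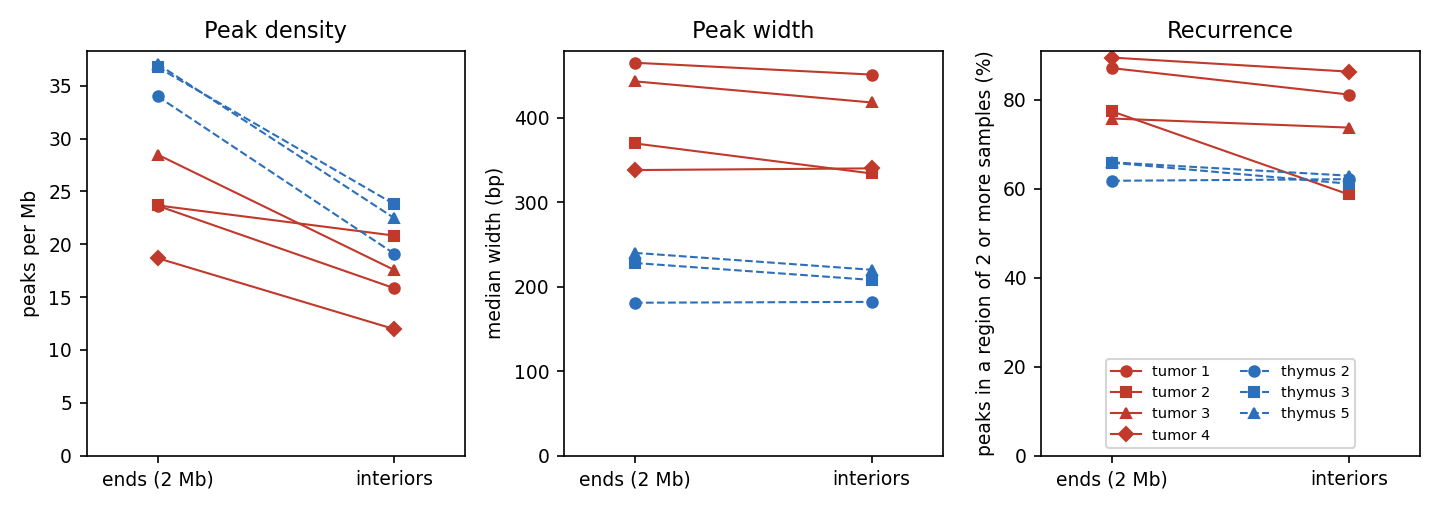
Peak density (peaks per Mb, left), median peak width (bp, middle) and the share of peaks whose region was also called in another sample (%, right) at the chromosome ends and in the interiors. Each line joins the 2 values of 1 sample, solid red for tumors and dashed blue for thymus. All 7 lines fall towards the interior for density, while widths stay close to level.

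The tissues differed in the density of end peaks as such, but not detectably in the ratio of ends to interiors. The ends held 23.6 ± 4.0 peaks per Mb in tumors (SD, n = 4) and 35.9 ± 1.69 peaks per Mb in thymus (SD, n = 3), and the ranges of the groups did not overlap. The difference of -12.3 peaks per Mb gave p = 0.0286 in the exact two-sided permutation test, the lowest value possible with 35 divisions of 7 samples into 4 and 3. This difference lay largely in narrow peaks. Among peaks of at least 200 bp it was -0.478 peaks per Mb (exact permutation p = 0.83). With the lists cut to their 16767 widest peaks it was -2.50 peaks per Mb (exact permutation p = 0.0857). Thymus peaks were also narrower in the interiors, with medians of 182 to 220 bp against 334 to 451 bp in tumors. Narrow thymus peaks were thus not particular to the ends. The log2 ratio of end to interior density was 0.53 ± 0.23 in tumors (SD, n = 4) and 0.73 ± 0.10 in thymus (SD, n = 3), a difference of -0.20 with an exact permutation p of 0.229. Peak names in the lists of thymus 2 and thymus 5 carry the word batch with a number, and those of the other 5 lists do not. Among these 5 lists, the ends of thymus 3 were 1.54 times as dense as its interior, and 2 of the 4 tumors lay above this value, while the density of its end peaks was above that of all 4 tumors. With 1 thymus sample the smallest p would be 0.2, so no test was made within these lists.

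Peaks also covered more of the ends than of the interiors in every sample, although the order of the samples differed from that for peak number. Peaks covered 13.3, 11.8, 16.6 and 8.13 kb per Mb of the ends in tumors 1 to 4, and 10.6, 16.3 and 18.8 kb per Mb in thymus 2, 3 and 5. In the interiors they covered 9.19, 11.5, 10.3 and 5.70 kb per Mb in the tumors and 5.61, 10.0 and 11.1 kb per Mb in the thymus samples. The log2 ratio was 0.59 ± 0.28 (SD, n = 7), above 0 in 7 of 7 lists with an exact sign-flip permutation p of 0.0156. It was lower in tumors (0.44 ± 0.28, SD, n = 4) than in thymus (0.79 ± 0.11, SD, n = 3), without passing the exact permutation test (difference -0.35, p = 0.0571). Tumor 2, at 0.03, lay farthest from the other samples. Among the lists without the batch word, 0 of 4 tumors had a cover ratio above that of thymus 3 (1.63).

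Width differed little between ends and interiors. The median end peak measured 465, 369.5, 443 and 338 bp in tumors 1 to 4 and 181, 228 and 240 bp in thymus 2, 3 and 5. The median interior peak measured 451, 334, 418 and 340 bp in the tumors and 182, 208 and 220 bp in the thymus samples. End peaks were thus the wider ones in 5 of 7 lists, and the mean log2 ratio of 0.07 ± 0.07 (SD, n = 7) did not pass the exact sign-flip permutation test (p = 0.0625). With the ends cut at 1 Mb in place of 2 Mb the ratio was 0.12 and passed (exact permutation p = 0.0156). The ratio differed by -0.02 between tumors and thymus (exact permutation p = 0.8). Among peaks of at least 200 bp this difference was -0.12 (exact permutation p = 0.0286). The share of peaks of 1 kb or more split by tissue. It was 11.7, 9.53, 16.3 and 7.21% at the ends of tumors 1 to 4, below 13.9, 12.2, 17.1 and 10.1% in their interiors. It was 6.15, 12.9 and 17.0% at the ends of thymus 2, 3 and 5, above 4.91, 11.9 and 16.1% in their interiors. Over all 7 lists the mean difference was -0.781 percentage points (exact permutation p = 0.312). The difference of ends minus interiors was -2.13 ± 0.956 points in tumors (SD, n = 4) and 1.02 ± 0.209 points in thymus (SD, n = 3), without overlap, and the contrast of -3.16 points had an exact permutation p of 0.0571. Among peaks of at least 200 bp the contrast was -4.23 points (exact permutation p = 0.0286). It was tested after the values were seen. Neighbouring peaks lay closer together at the ends in 6 of 7 lists. The median gap was 6.37 to 16.9 kb at the ends and 8.54 to 22.5 kb in the interiors (log2 ratio -0.35 ± 0.23, SD, n = 7, exact permutation p = 0.0313). The exception was tumor 2, with a median gap of 13.2 kb at its ends and 12.7 kb in its interior. Only the list of tumor 1 gives the height of a peak. There, the median fold enrichment over lysate was 3.61 at the ends and 3.48 in the interior.

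The density fell with distance from the end. In the outermost 0.25 Mb it was 35.4, 32.5, 44.0 and 28.2 peaks per Mb in tumors 1 to 4 and 57.6, 57.3 and 59.3 peaks per Mb in thymus 2, 3 and 5. From 1 to 2 Mb it was 18.6, 20, 23.1 and 15.0 peaks per Mb in the tumors and 27, 29.1 and 28.7 peaks per Mb in the thymus samples. In every list the density was lower in each step outside in, through 0.25 to 0.5 Mb, 0.5 to 1 Mb, 1 to 2 Mb and 2 to 5 Mb. Beyond 10 Mb it was 12.3 to 22.9 peaks per Mb in tumors and 19.1 to 24.4 peaks per Mb in thymus. The outermost 0.25 Mb were denser than the stretch from 1 to 2 Mb in 7 of 7 lists, by 0.94 ± 0.13 on the log2 scale (SD, n = 7, exact sign-flip permutation p = 0.0156). Median width was also larger in the outermost stretch in 7 of 7 lists, by 0.17 ± 0.14 on the log2 scale (SD, n = 7, exact sign-flip permutation p = 0.0156). Both tests of this gradient were chosen after its values were seen.

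**Figure D2:**
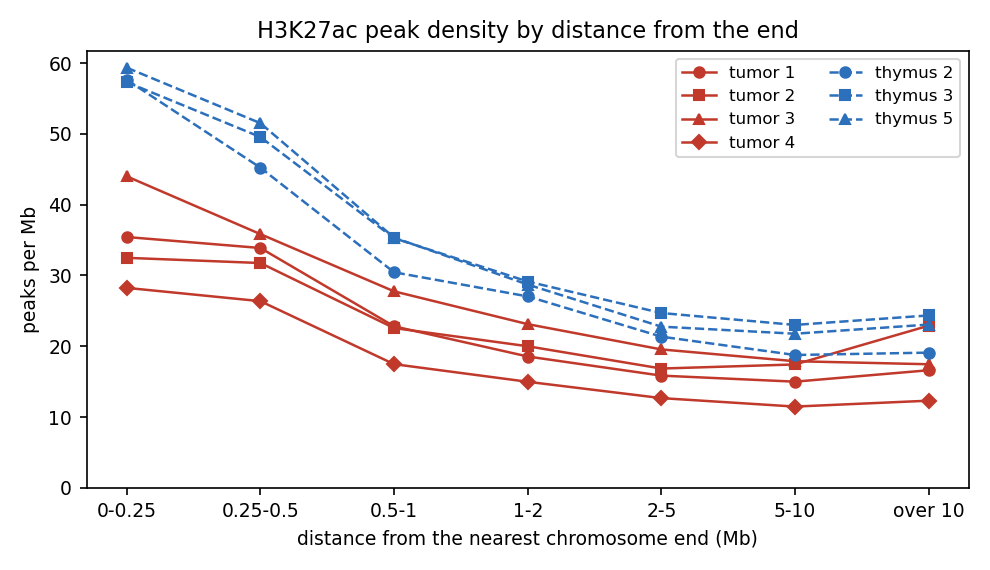
Peak density (peaks per Mb) in 7 ranges of distance from the nearest chromosome end (Mb), 1 line per sample, solid red for tumors and dashed blue for thymus. The 3 thymus samples lie between 57.3 and 59.3 peaks per Mb in the outermost 0.25 Mb, the 4 tumors between 28.2 and 44.0, and all lines fall through the range of 2 to 5 Mb.

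Measured against the stretch from 1 to 2 Mb, the gradient was less steep in tumors. The outermost 0.25 Mb were denser than the stretch from 1 to 2 Mb by 1.91, 1.62, 1.90 and 1.89 times in tumors 1 to 4 and by 2.13, 1.97 and 2.07 times in thymus 2, 3 and 5, so that the groups did not overlap. The difference of the log2 ratios was -0.17 (0.87 ± 0.11 in tumors, SD, n = 4, and 1.04 ± 0.06 in thymus, SD, n = 3, exact two-sided permutation test, p = 0.0286). The distance between the highest tumor (1.91) and the lowest thymus sample (1.97) is small. The difference of the log2 ratios was -0.36 when peaks under 200 bp were left out, and with the 16767 widest peaks of a list it was -0.31 (exact permutation p = 0.0286 in both). The lowest thymus sample was thymus 3, so all 4 tumors also lay below the 1 thymus list without the batch word. Without tumor 2, which had the lowest ratio, the difference was -0.11 (exact permutation p = 0.1, the smallest then possible). Measured against the stretch beyond 10 Mb, the tissues overlapped. The outermost 0.25 Mb were then denser by 2.13, 1.42, 2.52 and 2.29 times in tumors 1 to 4. In thymus 2, 3 and 5 they were denser by 3.02, 2.35 and 2.57 times, so that tumor 3 lay above thymus 3.

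The 49 ends differed widely from each other, in much the same way in every sample. Their density was set relative to the average of the whole list, so that 1 is the average over chromosomes 1 to 25. By the mean over the samples, 43 of 49 ends lay above the median 2 Mb window in the interior of their own chromosome. In single lists 37, 31, 43 and 39 ends did so in tumors 1 to 4, and 46, 41 and 44 in thymus 2, 3 and 5. In all 7 lists 29 ends lay above it, and 0 lay below it in all 7. Of the 49 ends 20 exceeded the 90th percentile of interior windows, as 62 of the 612 interior windows themselves do, and 7 of the 20 densest windows were ends. Spearman's rho of the densities over the 49 ends was 0.836 to 0.884 between tumors, 0.898 to 0.944 between thymus samples and 0.759 to 0.880 between a tumor and a thymus sample. Over the interior windows it was 0.678 to 0.866, 0.805 to 0.931 and 0.619 to 0.839 in the same order. These values describe shared positions in lists called by the same method. Left ends were denser than right ends by 0.153 ± 0.10 in relative density (SD, n = 7), in 6 of 7 lists (exact sign-flip permutation p = 0.0313). The comparison sets 25 left ends against 24 right ends. All 7 lists measure these same ends, so the p shows only that the lists go the same way. The spread between single ends is far wider than this difference and did not enter the test. Whether left ends differ from right ends as a class was thus not tested. The left end of chromosome 4, at a mean of 2.30, is in and its right end is out, and the part of this in the difference was not tested.

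The densest end was the left end of chromosome 22. It held 119, 109, 119 and 100 peaks in tumors 1 to 4 and 143, 160 and 169 peaks in thymus 2, 3 and 5. Its relative density averaged 3.37 ± 0.61 in tumors (SD, n = 4) and 3.45 ± 0.19 in thymus (SD, n = 3), where the median window in the interior of the chromosome stood at 1.14. It also held 73 of the regions called in all 7 samples, more than any other end. The right end of chromosome 21 followed with 97, 88, 101 and 63 peaks in the tumors and 137, 146 and 150 peaks in the thymus samples, a relative density of 2.58 ± 0.37 in tumors (SD, n = 4) and 3.17 ± 0.22 in thymus (SD, n = 3). Next in the order were the right end of chromosome 11 at a mean of 2.36, the left end of chromosome 4 at 2.30 and the right end of chromosome 8 at 2.24. These 3 lie within the spread between samples of each other. The left end of chromosome 4 stood out most against its own chromosome. It held 76, 79, 81 and 71 peaks in tumors 1 to 4 and 99, 110 and 104 peaks in thymus 2, 3 and 5, and was 4.51 times as dense as the median window in the interior of chromosome 4, which includes most of the long arm (relative density 0.51).

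At the other extreme, the left end of chromosome 16 held 14, 17, 36 and 12 peaks in tumors 1 to 4 and 32, 31 and 27 peaks in thymus 2, 3 and 5, a mean relative density of 0.612. The left end of chromosome 17 followed at 0.696, the right ends of chromosomes 24 and 14 at 0.840 and 0.844, and the left end of chromosome 24 at 0.861.

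**Figure D3:**
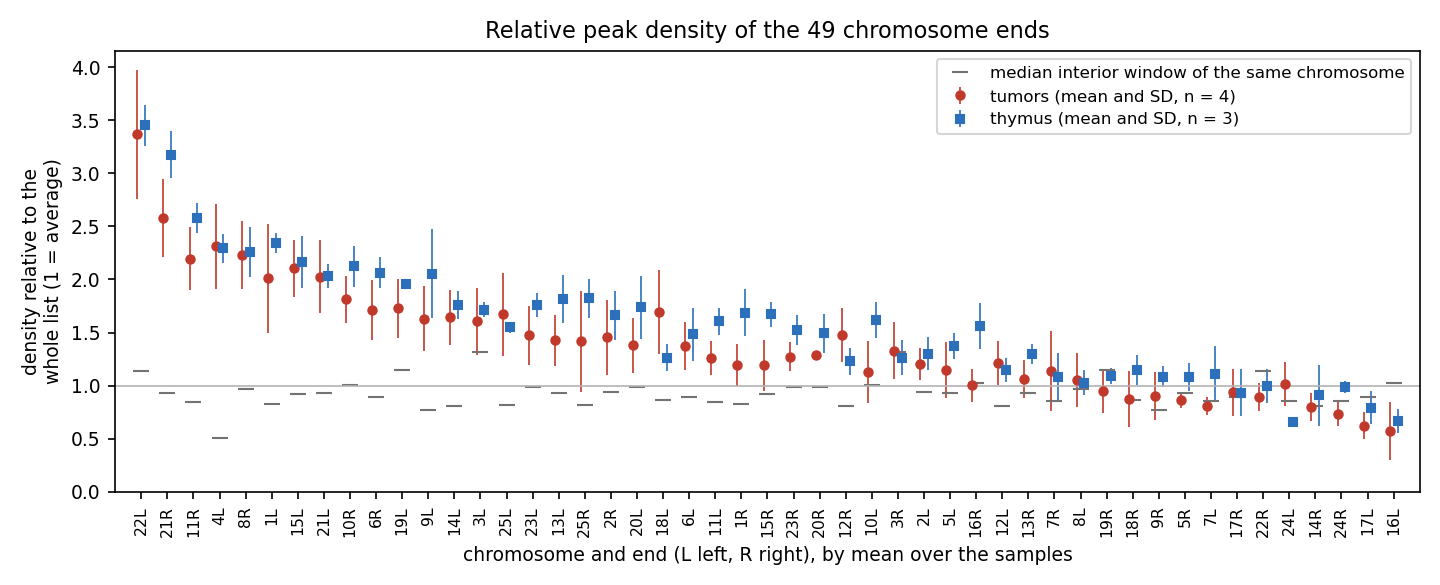
Peak density of each of the 49 ends relative to the average of its list (1 is the average over chromosomes 1 to 25), with the mean and SD of the 4 tumors (red circles) and the 3 thymus samples (blue squares), in the order of the mean over all samples. Grey bars mark the median interior window of the same chromosome, and the left end of chromosome 22 stands highest at a mean of 3.4.

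At 9 ends all 3 thymus samples had a higher relative density than all 4 tumors, which is 18.4% of the 49 ends, against 9.38% of all 661 windows of 2 Mb. The opposite held at 1 end (2.04%, against 8.17% of all windows). The 9 ends were the left ends of chromosomes 10 and 11 and the right ends of chromosomes 1, 5, 13, 15, 16, 23 and 24. Of these, the right end of chromosome 16 had the widest gap between the group means, with 27, 40, 44 and 26 peaks in tumors 1 to 4 and 61, 68 and 85 peaks in thymus 2, 3 and 5. Its relative density was 1.0 ± 0.16 in tumors (SD, n = 4) and 1.56 ± 0.22 in thymus (SD, n = 3). The count of such ends was 18 without tumor 3 (36.7% of ends, against 14.2% of windows) and 16 without thymus 3 (32.7% of ends, against 13.2% of windows). With fewer samples the condition is easier to meet, at ends and in other windows alike. The end where tumors were higher was the left end of chromosome 24, with 35, 49, 26 and 28 peaks in tumors 1 to 4 and 26, 31 and 33 peaks in thymus 2, 3 and 5. Relative to the list this was 1.07, 1.16, 0.707 and 1.12 in the tumors and 0.643, 0.626 and 0.70 in the thymus samples, so that tumor 3 and thymus 5 nearly met. Without tumor 2, 4 ends had all tumors above all thymus samples (8.16% of ends, against 13.3% of windows).

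End peaks recurred between samples more often than interior peaks in 6 of 7 lists. A peak was called recurrent when the region it belonged to, formed by merging peaks of all lists that overlap by at least 1 bp, held a peak of at least 1 other sample. At the ends 87.1, 77.4, 75.8 and 89.5% of the peaks of tumors 1 to 4 were recurrent, and 61.8, 65.9 and 66.0% of those of thymus 2, 3 and 5. In the interiors the shares were 81.2, 58.7, 73.8 and 86.4% in the tumors and 62.2, 61.2 and 63.0% in the thymus samples. The mean difference was 5.31 ± 6.22 percentage points (SD, n = 7), with an exact sign-flip permutation p of 0.0313. A shared region counts in several lists, so the 7 differences are not fully independent. Tumor 2 gave the widest difference, 18.7 points, and with the regions formed again without it the mean was 4.18 points. In tumor 2 many interior peaks were its own. It supplied 20.2% of the interior regions called in a single sample and 9.66% of such regions at the ends. Leaving out tumor 1, tumor 3, tumor 4, thymus 3 or thymus 5 took p to 0.0625 with a mean of 5.32 to 5.81 points. Tumors and thymus differed by 5.00 points in this measure, less than the spread between the tumors (exact permutation p = 0.371). Peak density was also higher at the ends, and its part in the recurrence was not tested.

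Merging gave 8079 regions at the ends and 73697 in the interiors. Regions called in all 7 samples numbered 947 at the ends, or 11.7% of the regions there, against 6052 in the interiors (8.21%) and 8.57% of all 81921 regions. They were 1.99 times as frequent per Mb at the ends as in the interiors, and each of the 49 ends held at least 1. Regions called in a single sample numbered 5426 at the ends, or 67.2%, against 71.9% in the interiors and 71.4% of all regions, and were 1.3 times as frequent per Mb. Within each list, the share of regions that were called in all 7 samples was higher at the ends than in the interior by 2.37 to 19.3 percentage points. These are the same regions in each list, so the 7 values are not independent and no p is given for them. The share called also in the other tissue was higher at the ends in 7 of 7 lists, by 7.98 ± 6.68 points (SD, n = 7, exact sign-flip permutation p = 0.0156). Its regions also count in several lists, so this p overstates the number of independent values. The share called only in the sample's own tissue, in 2 or more samples, again split by tissue. Ends minus interiors gave -3.95, -1.59, -3.82 and -3.78 points in tumors 1 to 4 and 0.0595, 1.31 and 1.02 points in thymus 2, 3 and 5. Over all 7 lists the mean was -1.54 points (exact permutation p = 0.156), while the contrast of tumors minus thymus, tested after the values were seen, was -4.08 points (exact permutation p = 0.0286). Among peaks of at least 200 bp the contrast was -3.26 points (exact permutation p = 0.0571). Each such region counts in 2 or more lists of the same tissue. Values within a tissue are thus not independent, which favours separation of the groups, and these p-values overstate the evidence. The measure also asks for 2 of 4 lists in tumors but 2 of 3 in thymus.

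**Figure D4:**
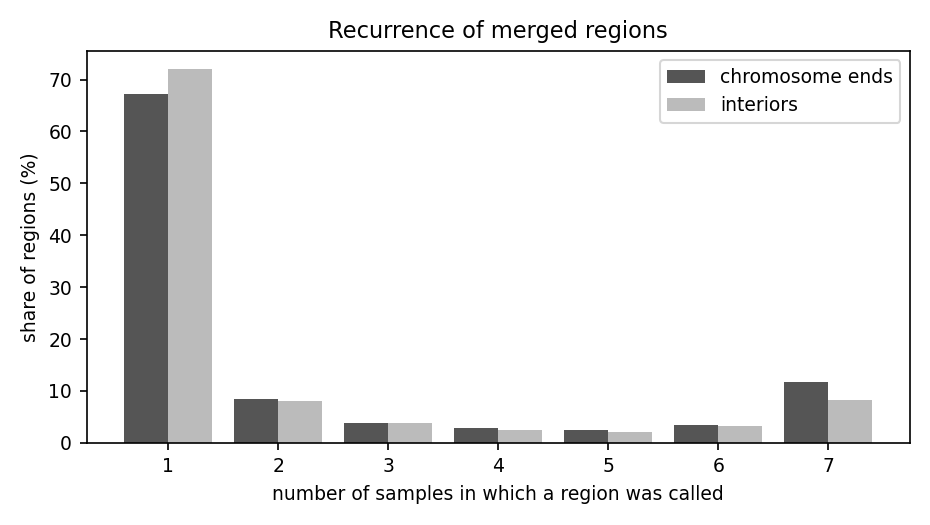
Share of regions (%) by the number of samples in which they were called, at the chromosome ends (dark bars) and in the interiors (light bars). Regions of all 7 samples make up 11.7% at the ends and 8.21% in the interiors, and regions of a single sample 67.2 and 71.9%.

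Regions particular to 1 tissue were few at the ends. Those present in every tumor and absent from the thymus lists numbered 28 (0.347% of end regions, against 0.474% of all regions) and lay at 17 of the ends. Those present in every thymus list and absent from the tumors numbered 59 (0.730%, against 0.652%) and lay at 29 ends. Per Mb the tumor regions were 0.988 times and the thymus regions 1.58 times as frequent at the ends as in the interiors. These shares lie near those of all regions. The order of the 2 counts depended on narrow peaks. Among peaks of at least 200 bp there were 29 tumor and 22 thymus regions. With the 16767 widest peaks of each list there were 30 and 33. Leaving out a library loosens the condition, so higher counts then follow largely by construction. There were 48, 62 and 54 tumor regions without tumor 2, tumor 4 and thymus 5. Without thymus 2, thymus 3 and thymus 5 there were 220, 135 and 135 thymus regions. The left end of chromosome 24 held the most tumor regions, 4, and the right end of chromosome 11 the most thymus regions, 7.

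Gene names could be given to 247 of the 8079 end regions (146 genes), from region tables of the study that hold 1798 positions on chromosomes 1 to 25, 194 of them at the ends. These tables are partial here and were drawn up by the study from these samples, so they are no independent evidence of direction. Of the named end regions 47 lay within 1 kb of a gene start, and 36 of these (76.6%) were called in all 7 samples and 44 (93.6%) in both tissues. Of all 247 named end regions 29.1% were called in all 7 samples and 48.2% in both tissues, and of the 81921 regions of chromosomes 1 to 25 it was 8.57 and 20.9%.

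The regions of all 7 samples that were widest by rank within the lists were led by one at chr4:1679864-1686132, to which no gene name could be given. Peaks covered 3670, 3270, 3277 and 3443 bp of it in tumors 1 to 4 and 2930, 4962 and 6269 bp in thymus 2, 3 and 5, and it holds the widest end peak of thymus 3 and of thymus 5. The groups overlap, and the tumors vary less among themselves (SD 188 bp, n = 4) than the thymus samples do (SD 1683 bp, n = 3). Regions at chr9:482019-486008, chr21:1141665-1146043 and chr10:45344389-45347876 followed. The chromosome 21 region holds the widest end peak of tumor 1 (3630 bp). The chromosome 10 region, 34.4 kb from the right end, holds that of thymus 2 (2865 bp). The fifth, chr6:439396-442874, was assigned to grap2b, the counterpart of an adaptor protein that links the T-cell receptor to its signalling partners in mammals. It had 3204, 3479, 3440 and 2897 bp under peaks in the tumors and 1587, 2677 and 2462 bp in the thymus samples, with every tumor above every thymus sample.

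Among the regions of all 4 tumors alone, the leading pair lay side by side at chr24:441373-444740 and chr24:446919-449835, both assigned to zgc:110852. The first had 3368, 2810, 1656 and 2904 bp under peaks in tumors 1 to 4, and the second 2527, 2582, 1509 and 2917 bp, against 0 bp in all thymus samples. They belong to a run of 6 regions between bases 441373 and 463561, of which 4 were called in all tumors and 2 in all but tumor 3, and none in any thymus sample. This is the end at which the relative density of tumors was above that of thymus, and these peaks count in that density. The zgc:110852 locus held 8, 9, 6 and 10 of the 35, 49, 26 and 28 peaks of tumors 1 to 4 there. Next among the regions of the tumors alone was chr12:143460-145682 at dnah9, which encodes a dynein heavy chain of motile cilia. It was followed by chr18:865780-867216 at parp6a, of the poly(ADP-ribose) polymerase family, and chr4:1904740-1906224 at pwp1, a protein of ribosome production. The dnah9 region had 2223, 1739, 743 and 1488 bp under peaks in tumors 1 to 4. The parp6a and pwp1 regions had 370 to 1437 bp and 200 to 1375 bp. A neighbouring region at parp6a, chr18:862274-864858, was called in all 7 samples. It had 1560 to 2232 bp in tumors and 50 to 169 bp in thymus.

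Among the regions of all 3 thymus samples alone, the first was chr9:532880-536367, assigned to si:dkey-11f4.16, with 745, 3416 and 2764 bp under peaks in thymus 2, 3 and 5. Another region of this gene, chr9:472880-476898, was called in all 7 samples. It had 781, 3909, 1572 and 1733 bp in tumors 1 to 4 and 728, 2241 and 1965 bp in thymus 2, 3 and 5. The second, chr11:45321332-45322707, was assigned to mafgb, the counterpart of a small Maf transcription factor, with 871, 1332 and 1061 bp. A further mafgb region at chr11:45320410-45320732 was of the same class, while one at chr11:45322794-45322911 was called in tumor 3 alone, with 118 bp. The remaining ones were chr1:396894-397944 at pros1, which encodes the anticoagulant protein S, chr10:94931-96183 at pigp, of the enzyme complex that starts glycosylphosphatidylinositol anchors, and chr13:51847084-51848277, to which no name could be given. The pros1 region was the least even, with 795, 1051 and 142 bp in thymus 2, 3 and 5. Another pros1 region, chr1:398670-398823, was called in tumor 1 alone, with 154 bp.

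The genes whose named regions lay nearest to their starts were mostly marked in both tissues. Regions of map2k4b (a kinase of the stress-activated MAP kinase cascade), tmem39a, polm (DNA polymerase mu, which takes part in end joining), dhdhl, tnfaip8l2a (of a family that restrains immune signalling in mice), irak4 (a kinase downstream of Toll-like receptors), brpf1 (a subunit of a histone acetyltransferase complex) and dpysl5b were called in all 7 samples. The polm region had 859, 1686, 1369 and 1303 bp under peaks in tumors 1 to 4 and 1221, 1052 and 1904 bp in thymus 2, 3 and 5. The irak4 region had 601, 582, 625 and 632 bp in the tumors and 649, 436 and 1073 bp in the thymus samples. In both the groups overlap. The dpysl5b region had 1530 to 1810 bp in tumors and 96 to 1104 bp in thymus, which did not overlap. A further brpf1 region, chr8:54157416-54158201, was called in all 3 thymus samples and no tumor. The start regions of wdr92 and nudt6 lacked a peak in thymus 2 alone. They had 327 to 638 bp and 201 to 298 bp in tumors, and at most 171 and 140 bp in thymus, again without overlap. The start region of ptk7a, the counterpart of a receptor-like protein of Wnt signalling, was called in tumors 1, 3 and 4 alone. It had 745, 752 and 685 bp there.

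Several loci with known roles in T cells lie within 2 Mb of an end. They were taken, after their values were seen, from tables of large H3K27ac domains that the study had drawn up from tumors, so they were chosen where tumors carry much signal. The tables gave 21 loci at the ends, some of which overlap each other, and 18 of them (85.7%) had a peak in all 7 samples. Of the 310 loci that the same tables gave in the interiors, 204 (65.8%) did. At 7 of the 21 end loci the cover of tumors and of thymus samples did not overlap. Among them, pkma and si:dkey-205h23.1 are largely the same stretch and both count. The same was not counted for the interior loci, so whether 7 of 21 is unusual cannot be told. The loci named below hold most of these 7, while most of the overlapping loci are not named. No test was made of these shares. At themis, needed for thymocyte selection in mice, peaks covered 6464, 718, 2355 and 2898 bp in tumors 1 to 4 and 1371, 4267 and 2628 bp in thymus 2, 3 and 5. At runx1, a transcription factor of blood stem cells and T-cell precursors, they covered 4930, 2702, 5824 and 2404 bp in the tumors and 870, 2784 and 4934 bp in the thymus samples. At hdac7a, the counterpart of a histone deacetylase that acts in mouse thymocytes, they covered 16006, 16469, 18810 and 11414 bp in the tumors and 8224, 15837 and 21769 bp in the thymus samples. In all 3 loci the tumors and the thymus samples overlap.

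The mean cover was also higher in tumors at themis, runx1 and hdac7a, but the loci that follow had a wider margin. At tcf4, an E protein of lymphocyte development, peaks covered 14037, 12501, 20003 and 6668 bp in tumors 1 to 4 and 996, 6610 and 8651 bp in thymus 2, 3 and 5, where tumor 4 lay below thymus 5. At mir181b-2, of the miR-181 family that tunes T-cell receptor sensitivity in mice, they covered 3333, 1294, 2589 and 1490 bp in the tumors and 0, 176 and 1156 bp in the thymus samples, with no overlap. At pkma, a pyruvate kinase of glycolysis, they covered 9405, 8667, 12945 and 5985 bp in the tumors and 372, 1212 and 967 bp in the thymus samples, and no tumor came near the thymus range. This stretch takes in the parp6a region chr18:862274-864858 named above, so the pkma and parp6a values are not separate. Largely the same stretch was also listed under si:dkey-205h23.1, with 8999, 8667, 12729 and 5551 bp in the tumors. Which gene the peaks belong to was not tested. The zgc:110852 locus had 8580, 9554, 3624 and 6945 bp under peaks in the tumors and 0 bp in each thymus sample. At ano6, a membrane protein that scrambles phospholipids, the cover was 10968, 9937, 11255 and 2790 bp in the tumors and 1044, 3137 and 2500 bp in the thymus samples, so that tumor 4 lay within the thymus range. The ano6 locus starts 1878 kb from the left end of chromosome 4 and holds the widest end peak of tumor 3, at chr4:1911233-1915075. The pwp1 region chr4:1904740-1906224 named above lies between these positions, so pwp1 and ano6 are not clearly separate loci.

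The order was the other way round at rapgef6 and prkra. At rapgef6, an exchange factor for Rap GTPases, peaks covered 3348, 2778, 3236 and 2893 bp in tumors 1 to 4 and 5257, 7242 and 7560 bp in thymus 2, 3 and 5. At prkra, an activator of the double-stranded RNA kinase PKR in mammals, they covered 2529, 1832, 3701 and 3379 bp in the tumors and 4646, 4123 and 4772 bp in the thymus samples. Neither locus overlaps between the groups.

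**Figure D5:**
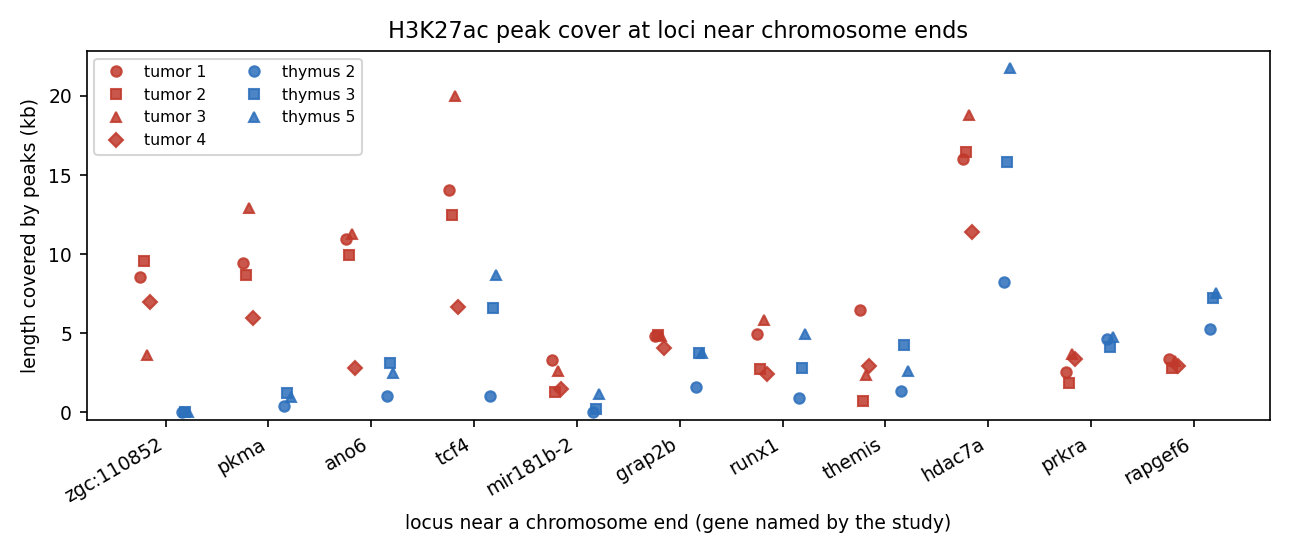
Length under H3K27ac peaks (kb) in each sample at 11 loci within 2 Mb of a chromosome end, tumors in red on the left of each locus and thymus in blue on the right. The locus zgc:110852 has no peak in any thymus sample, pkma has at most 1212 bp in a thymus sample, and rapgef6 and prkra lie higher in all 3 thymus samples.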

How the data were processed

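H3K27ac was measured by ChIP-seq, and 1 peak list from each of 4 tumors and 3 thymus samples was used. The 7 lysate libraries were not used here. As the labels and methods state, reads (50 bp, single-end) were mapped by the authors to GRCz11 using Bowtie2, cleared of duplicates in samtools and passed to MACS2 for broad peaks, each library against its lysate. The deposited lists hold peak positions. That of tumor 1 also holds, as the authors' caller gave them, a score, the fold enrichment (a ratio) and −log10 of p and q, of which fold enrichment was used only as a description. The study states 1 nominal depth for its libraries, and totals per library were not used here, so no counting intervals are given.

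Groups came from the labels. The members and lists were chosen with earlier results of these data known. Each sample served as its own control (log2 of end over interior, or a difference of percentages), tested by exact sign flips over 7 samples. Tumors and thymus were compared by exact permutation over 35 divisions. All tests are two-sided. Benjamini-Hochberg values were taken over the 9 tests of the design, which share the same lists. Regions are peaks of all lists merged at an overlap of 1 bp. Named regions are the 5 of each class that ranked highest by covered width (median, over the calling lists, of the percentile within a list). Named ends are the 5 densest and the 5 least dense. Genes are those of named regions, then those with a tabled position nearest to a start, up to 20, and names come from the study's region tables by overlap. Loci of large domains, the tests of the distance gradient and the tissue contrasts of wide peaks and of own-tissue regions were added after seeing the data. The tests of left against right ends and of the gap between peaks were not in the design either. The same holds for the tests over all lists of wide peaks and of regions of the other or only the own tissue. All of these p-values are unadjusted. Sequence and gene annotation of GRCz11 were not used here.

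Alternatives were windows of 0.5, 1 and 5 Mb, no chromosome 4, peaks of at least 200 bp, the widest 16767 peaks of each list, assignment by midpoint, recurrence where another list covers at least 50% of a peak, leaving out each sample, and a replicate block. Added after seeing the data were interiors without the windows of tumor 2's wide peaks and interior density as the median window. Python 3.11.15, NumPy 2.4.6, pandas 2.3.3, SciPy 1.17.1 and matplotlib 3.10.9 were used, and the code was tested on simulated data.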

Additional observations from a re-analysis of the deposited data

Results flagged for a closer look

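The density gradient near the ends differed between the tissues by a test of the difference itself. The log2 ratio of peak density in the outermost 0.25 Mb to that from 1 to 2 Mb was lower in tumors than in thymus by a difference of -0.17 (4 of 4 tumors below all 3 thymus samples, exact two-sided permutation p = 0.0286, the smallest possible). The share of regions called only in the sample's own tissue, ends minus interiors, also differed, by -4.08 points (4 of 4 tumors below all 3 thymus samples, exact permutation p = 0.0286). Both measures were chosen after the data were seen. With the stretch beyond 10 Mb in place of 1 to 2 Mb, the first did not separate the tissues (tumor 3 at 2.52 times, thymus 3 at 2.35 times). The regions of the second measure count in several lists of the same tissue, so its values are not independent and its p overstates the evidence.

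A single tumor lay far from the other 3 by Dixon's criterion in 6 of 56 measures, some of which share peaks, where chance gives about 1 in 20. Tumor 2 did so in both measures above, with a gradient of 1.62 times, the lowest of the tumors, and with -1.59 points, the tumor value nearest to thymus. Without tumor 2 the contrasts were -0.11 on the log2 scale and -3.17 points (exact permutation p = 0.1 in both, the smallest then possible). Tumor 3 stood apart at the left end of chromosome 16 with a relative density of 0.979, and at arhgap9 with 9051 bp under peaks. Tumor 4 stood apart at ano6 with 2790 bp and at grap2b with 4079 bp. The thymus group is too small for this criterion.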

How the results depend on the processing

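Over 123 alternatives for 19 results, leaving out samples and the replicate block aside, 77 of 93 tested values kept direction and side of the threshold, and 15 of 30 counts stayed within 1.5 times. The exceptions follow. The width ratio of ends to interiors passed the exact permutation test at 0.5 Mb (0.18) and at 1 Mb (0.12). Its tumor against thymus difference turned to 0.0113 at 5 Mb, and passed with peaks of at least 200 bp (-0.12) and the widest 16767 peaks (-0.10). With windows of 5 Mb, recurrence (3.00 points) and covered share (0.26) no longer passed. The tumor against thymus difference in end density lost its call at 5 Mb (-8.95 peaks per Mb), with peaks of at least 200 bp (-0.478) and with the widest peaks (-2.50). The tissue contrast of wide peaks passed at 5 Mb (-3.04 points), without chromosome 4 (-3.11), with peaks of at least 200 bp (-4.23) and with the widest peaks (-4.05). That of own-tissue regions did not pass at 5 Mb (-2.98) or with peaks of at least 200 bp (-3.26). The gradient contrast kept its call with peaks of at least 200 bp (-0.36) and with the widest peaks (-0.31). Counts of tumor-only, thymus-only, common and single-sample regions followed the window, with 9, 31, 368 and 1642 at 0.5 Mb and 60, 109, 1823 and 11679 at 5 Mb. At 1 Mb tumor-only, common and single-sample regions numbered 15, 579 and 2961. Peaks of at least 200 bp gave 22 thymus-only and 1971 single-sample regions, and the widest peaks 33 and 2059. Tumor-only regions numbered 29 and 30 in these settings, so that thymus-only regions were the fewer among peaks of at least 200 bp. A smaller window holds fewer regions by construction. For the remaining exceptions the cause was not tested.

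The omission of each sample in turn gave these ranges. End against interior density lay at 0.58 to 0.68 over all samples and -0.26 to -0.09 between tissues, width at 0.06 to 0.09 and -0.0627 to 0.00787 (sign turned in 3 of 7), recurrence at 4.18 to 6.24 and 1.32 to 7.18 points, and cover at 0.54 to 0.68 and -0.43 to -0.22. End density differed by -13.9 to -10.7 peaks per Mb, and the gradient near the ends lay at 0.92 to 0.98 over all samples and -0.20 to -0.11 between tissues. The contrast of wide peaks lay at -3.61 to -2.89 points and that of own-tissue regions at -4.36 to -2.86 points. With 6 samples the tests between tissues cannot pass the threshold. Counts ranged over 30 to 62 tumor-only, 65 to 220 thymus-only, 947 to 1064 common and 4355 to 5332 single-sample regions, 9 to 18 ends with thymus above and 1 to 4 with tumors above. Conditions on all samples of a group are looser with 1 sample fewer, so those counts rise largely by construction.

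Tumors and thymus share the numbers 2 and 3, but the labels do not say that a number marks a pair. With a replicate block on these numbers, the width difference was 0.0525, the end density difference -9.29 peaks per Mb the gradient difference -0.22 and the contrast of own-tissue regions -3.39 points, with no p below the threshold possible.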
